A study of Rattus norvegicus with 52 samples.

Results

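The Cyp2b probe sets and the Ephx1 probe set are 6 of the 8740 non-control probe sets measured in sections of rat liver. The selection reads only their IDs and uses no measured value. Of the 6, 5 have IDs that begin with k00996, l00320, m11251, m13234 or j00728, which the selection assigns to Cyp2b1, Cyp2b2 and near relatives, and 1 begins with m26125, assigned to Ephx1. All 6 lay above the intensity floor of 4 on all 52 arrays, so no filter on low values removed any of them. The deposited table pairs no ID with a gene, and 0 of the 7683 accessions inside the IDs matched the RefSeq gene table, so these assignments could not be tested here. For the same reason other genes of the pathway and markers of liver cell types could not be named or counted.

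Sections came from F344 rats given clofibric acid (CA) at 0, 0.29 or 0.54%, and each array holds the total RNA of 1 sample. Microdissected liver, taken as chosen regions of a section by laser capture microdissection (LCM), is represented by 2 controls and by 1 array at each CA dose. Sections labelled LCM reference time and dehydrated sections gave 1 array at each dose. In stained sections the numbers of arrays were 8 in controls, 7 at 0.29% CA and 5 at 0.54% CA, and in entire sections they were 8, 8 and 6. The labels give neither the age and sex of the rats, nor the route and length of treatment, nor the cells that were captured. Whether replicates are separate rats is also not said, and p-values therefore reflect only how far these samples differ, which may in part be technical. A section holds all cells of the tissue, and fewer cells that express a gene cannot be told apart from less RNA per cell.

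RNA quality was read from the GAPDH 3'/5' ratio, the intensity of a control probe set near the end of the transcript over that of one near its beginning, which goes up with degradation. Its median was 7.71 on the 4 microdissected arrays, 4.70 on the 3 LCM-reference-time arrays, 11.8 on the 3 dehydrated arrays, 8.45 on the 20 stained arrays and 1.54 on the 22 entire arrays. Within stained sections its median was 10.2 in controls, 7.32 at 0.29% CA and 4.47 at 0.54% CA. Within entire sections it was 1.36, 1.35 and 2.16 in the same order. Results were also computed without 6 arrays held in doubt, 3 of entire sections with a GAPDH ratio above 4 and 3 of stained sections with a 5S rRNA intensity above 200. No batch or scan date is given. An array has no read depth, and the number of arrays limits the precision.

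CYP2B enzymes are cytochrome P450 monooxygenases of the endoplasmic reticulum that oxidize drugs, steroids and many other foreign compounds. In rat liver, Cyp2b1 and Cyp2b2 are the classic genes induced by phenobarbital, through the constitutive androstane receptor (CAR). This nuclear receptor moves into the hepatocyte nucleus, pairs with the retinoid X receptor and binds an enhancer that lies further upstream than the window printed below. Ephx1 encodes microsomal epoxide hydrolase, which adds water to reactive epoxides, among them those that P450 enzymes form, and it is also induced by phenobarbital. CA is a fibrate drug and acts on another nuclear receptor, PPARα, which switches on genes of fatty acid oxidation.

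The RefSeq table of the rat genome (build GRCr8) lists 8 genes named Cyp2b on chromosome 1, and Ephx1 on chromosome 13. The first of the windows below show how alike Cyp2b1 and Cyp2b2 are, genes whose transcripts a family probe set may not separate. Each runs from 250 bases before to 50 bases after the annotated gene start, and capitals mark the bases that differ between the genes where the windows align.
Cyp2b1, chr1:90645869-90646168, plus strand: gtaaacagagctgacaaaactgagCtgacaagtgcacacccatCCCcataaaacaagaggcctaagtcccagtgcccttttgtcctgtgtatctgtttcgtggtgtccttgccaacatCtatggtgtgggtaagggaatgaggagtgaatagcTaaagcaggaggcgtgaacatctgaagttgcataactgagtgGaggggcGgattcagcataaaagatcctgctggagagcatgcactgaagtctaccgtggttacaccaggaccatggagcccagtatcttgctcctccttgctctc
Cyp2b2, chr1:90722031-90722330, plus strand: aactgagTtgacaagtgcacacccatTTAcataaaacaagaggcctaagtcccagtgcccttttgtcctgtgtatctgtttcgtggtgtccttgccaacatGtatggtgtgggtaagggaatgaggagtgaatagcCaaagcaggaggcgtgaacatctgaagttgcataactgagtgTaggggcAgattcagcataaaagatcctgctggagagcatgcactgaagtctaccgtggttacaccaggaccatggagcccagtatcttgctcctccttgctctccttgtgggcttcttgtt
Over the 283 bases that align, the windows of Cyp2b1 and Cyp2b2 are identical at 275 and differ at 8, without a gap, an identity of 97.2%. The aligned parts of the Cyp2b1 and Cyp2b3 windows, by contrast, are 82.6% identical over 242 bases, with 69 bases in gaps left out. These windows lie mostly before the transcripts and are not the probes' own sequences, which were not used here. In the naming scheme of Affymetrix probe sets, which these IDs follow, the ending _f_at marks probes shared within a gene family and _s_at marks probes shared by more than 1 transcript. Of the 5 Cyp2b probe sets, 4 end in _f_at and 1 in _s_at. Each may report a mixture of Cyp2b transcripts, and none can be read as the level of 1 gene.

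Ephx1 has 2 windows in the table, 1 for each annotated start. One of them is shown because it holds the hexamer AGGTCA, a half-site that nuclear receptors bind, in capitals on either strand.
Ephx1, chr13:95263068-95263367, minus strand: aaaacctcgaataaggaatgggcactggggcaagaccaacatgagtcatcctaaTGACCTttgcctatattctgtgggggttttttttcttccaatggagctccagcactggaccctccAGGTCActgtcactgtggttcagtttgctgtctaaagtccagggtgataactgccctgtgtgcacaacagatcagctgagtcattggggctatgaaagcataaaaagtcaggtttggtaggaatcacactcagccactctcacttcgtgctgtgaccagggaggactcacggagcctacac
The hexamer AGGTCA was searched on both strands, as were the half-site AGTTCA and the TATA motif TATAAA. On either strand AGGTCA occurs in 16.2% of all 33469 windows in the table, while AGTTCA occurs in 14.5% and TATAAA in 14.2%. None of the 3 hexamers is present in the windows printed for Cyp2b1 and Cyp2b2, and the Ephx1 window above holds AGGTCA at 2 places. The other Ephx1 window holds none of the 3. Of the 7 Cyp2b genes with a window, Cyp2b12, Cyp2b14, Cyp2b15 and Cyp2b21 hold AGGTCA once each, so the hexamer does not separate Ephx1 from the Cyp2b genes. Such matches only describe the letters of these windows.

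CA raised all 6 probe sets in entire liver sections, at both doses. Intensities below are those deposited. Tests and fold changes used log2 intensities after quantile normalization of all arrays, and a probe set was called when its adjusted p in limma (Benjamini-Hochberg, over all probe sets tested) lay under 0.05. At 0.29% CA, 6 of 6 were called higher, where 5.51% of the 7804 probe sets tested were called higher. At 0.54% CA it was again 6 of 6, against 8.12% of all. The median log2 fold change of the 6 was 0.97 at 0.29% and 1.42 at 0.54%, while that of all probe sets tested was -0.01 at both doses. Both doses were compared with the same controls. Because the Cyp2b probe sets may bind the same transcripts, counts out of 6 here and below are not counts of independent genes.

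**Figure D1:**
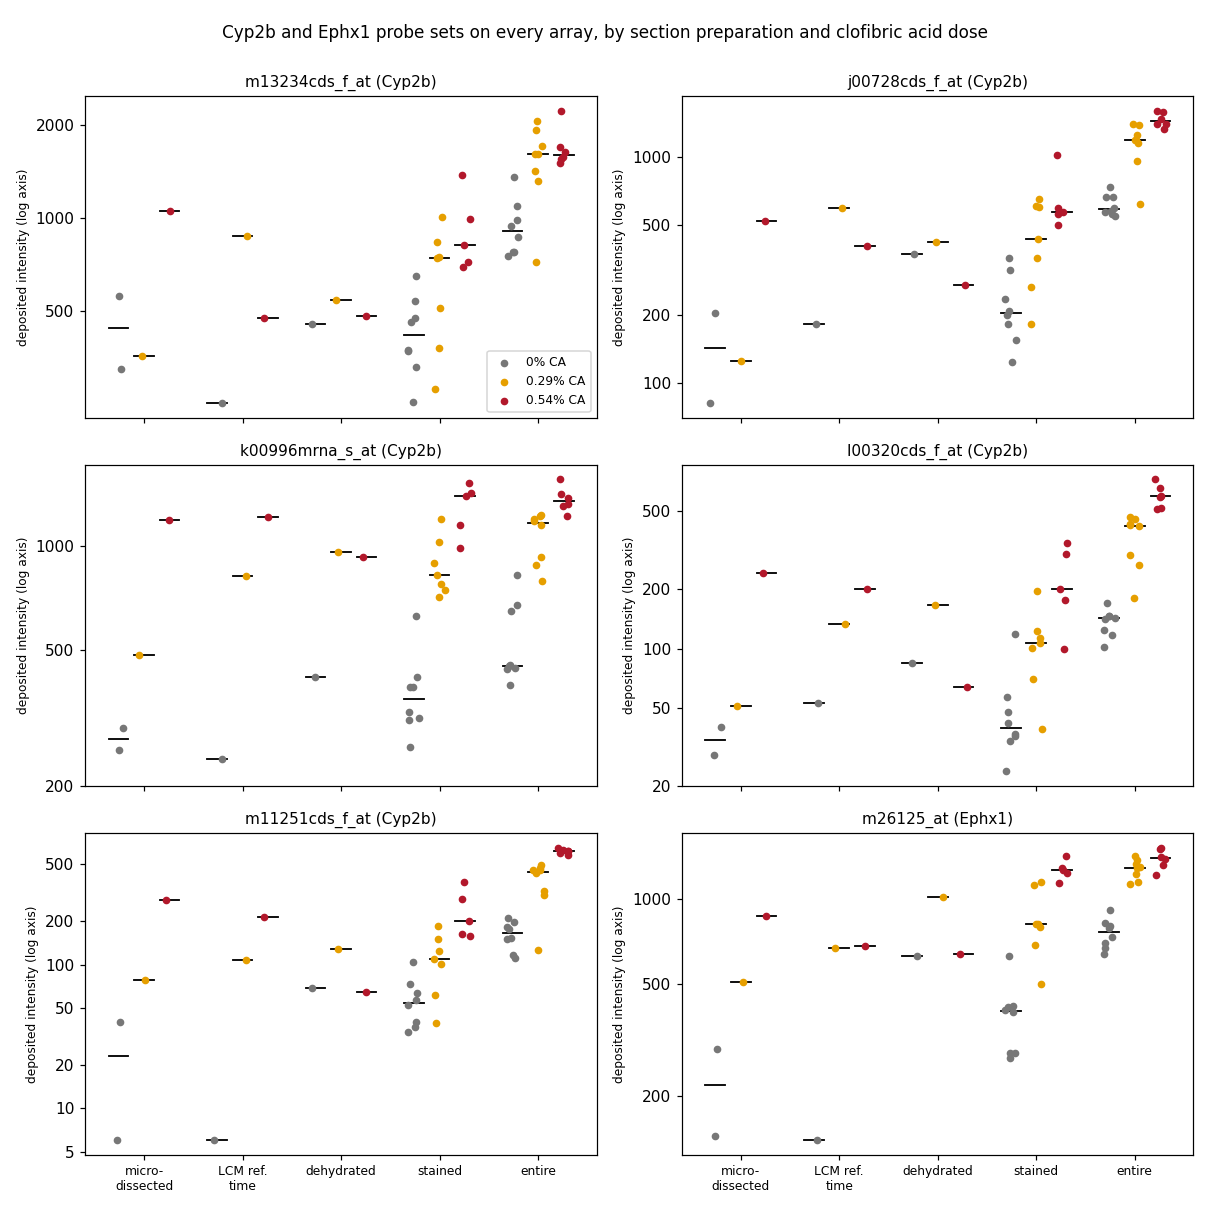
Deposited intensity (log axis) of each of the 6 probe sets on all 52 arrays. Panels are probe sets, the horizontal axis gives the section preparation, colours give the CA dose, points are arrays and black bars are group medians; in entire sections at 0.54% CA every array lies above every control array in all 6 panels.

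The widest rise among the Cyp2b probe sets was that of l00320cds_f_at. Its intensity in entire sections lay between 102 and 170 in the 8 controls (median 143), between 182 and 466 at 0.29% CA (n = 8, median 422) and between 511 and 725 at 0.54% CA (n = 6, median 595.5). The 3 groups did not overlap. Its log2 fold change was 1.33 ± 0.16 (SE, adjusted p = 4.15e-06) at 0.29% CA, or 2.52-fold, and 2.13 ± 0.18 (SE, adjusted p = 9.15e-09) at 0.54% CA, or 4.38-fold. At 0.54% CA this ranked 71st of 7804 log2 fold changes.

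Probe set m11251cds_f_at followed the same course. It lay between 111 and 211 in the controls (median 166), between 127 and 493 at 0.29% CA (median 444.5) and between 581 and 652 at 0.54% CA (median 621). At 0.29% CA 1 array fell within the range of the controls, while the arrays at 0.54% CA lay above all others. The rise was 2.21-fold at 0.29% CA (log2 1.14 ± 0.21, SE, adjusted p = 0.000587) and 3.85-fold at 0.54% CA (log2 1.94 ± 0.23, SE, adjusted p = 1.66e-06).

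Probe sets k00996mrna_s_at and j00728cds_f_at rose less steeply with dose. The first lay between 395 and 823 in the controls (median 449), between 793 and 1229 at 0.29% CA (median 1166.5) and between 1227 and 1570 at 0.54% CA (median 1352). Of its 8 arrays at 0.29% CA, 7 exceeded every control. It was 2.06-fold higher at 0.29% CA (log2 1.04 ± 0.15, SE, adjusted p = 2.51e-05) and 2.77-fold at 0.54% CA (log2 1.47 ± 0.16, SE, adjusted p = 4.66e-07). For j00728cds_f_at the controls spanned 547 to 731 (median 584), the arrays at 0.29% CA 620 to 1395 (median 1188) and those at 0.54% CA 1326 to 1590 (median 1429). Only the lower dose overlapped the controls. It rose 1.85-fold (log2 0.89 ± 0.14, SE, adjusted p = 8.35e-05) and 2.58-fold (log2 1.37 ± 0.15, SE, adjusted p = 5.84e-07).

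The smallest rise among the Cyp2b probe sets was that of m13234cds_f_at. Its intensity spanned 756 to 1359 in the controls (median 906), 722 to 2055 at 0.29% CA (median 1609) and 1511 to 2218 at 0.54% CA (median 1604.5). The 2 CA doses had nearly the same median, and at 0.29% CA 1 array lay below every control. The rise was 1.62-fold at 0.29% CA (log2 0.70 ± 0.18, SE, adjusted p = 0.0147) and 1.91-fold at 0.54% CA (log2 0.93 ± 0.20, SE, adjusted p = 0.00218).

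Ephx1, probe set m26125_at, changed by about as much as m13234cds_f_at and with less spread between arrays. It lay between 639 and 918 in the controls (median 762.5), between 1129 and 1425 at 0.29% CA (median 1293.5) and between 1215 and 1522 at 0.54% CA (median 1395.5). All arrays of both CA groups lay above all 8 controls. Its log2 fold change was 0.79 ± 0.08 (SE, adjusted p = 3.12e-07) at 0.29% CA, or 1.72-fold, and 0.94 ± 0.09 (SE, adjusted p = 5.29e-08) at 0.54% CA, or 1.92-fold.

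On the normalized scale the 0.54% CA arrays did not overlap the controls for 6 of 6 probe sets, as was so for 3.45% of all probe sets in the higher direction. At 0.29% CA this held for 3 of 6 (k00996mrna_s_at, l00320cds_f_at and m26125_at), against 2.19% of all. Replicate 6 at 0.29% CA was low for all 5 Cyp2b probe sets. On that array the Cyp2b intensities were 620 for j00728cds_f_at, 182 for l00320cds_f_at, 127 for m11251cds_f_at and 722 for m13234cds_f_at, each the lowest of the 8 arrays, and 882 for k00996mrna_s_at, the next to lowest. Ephx1 stood at 1232 there, within the range of its group. The GAPDH 3'/5' ratio of the array was 2.65, and its part in the low Cyp2b values was not tested. Without it the log2 fold changes at 0.29% CA were 0.86 for m13234cds_f_at, 1.34 for m11251cds_f_at and 1.45 for l00320cds_f_at, and all 6 stayed called.

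**Figure D2:**
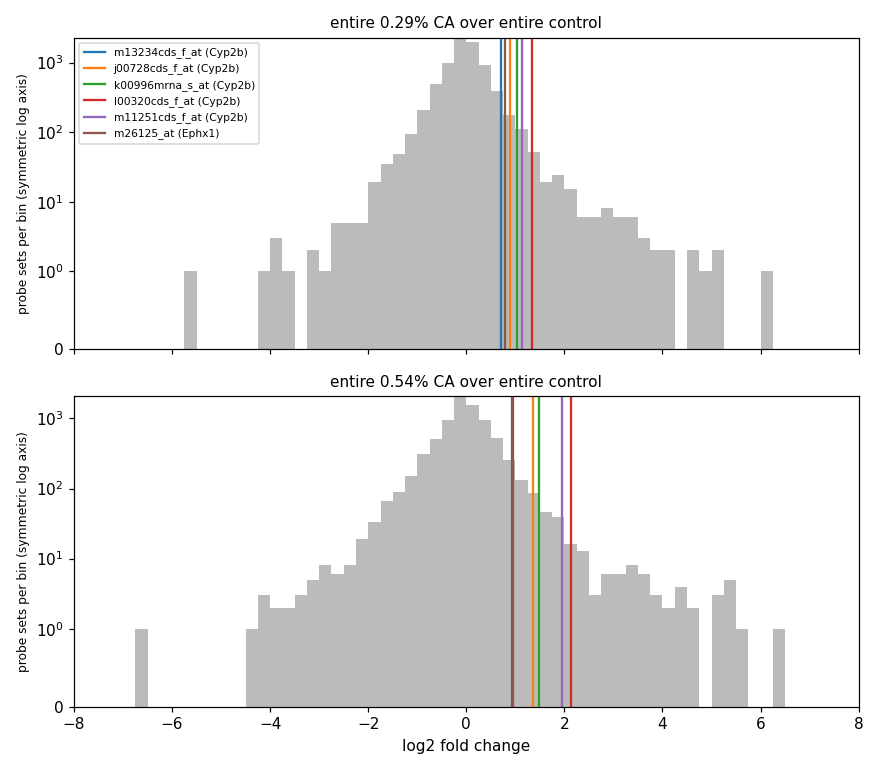
Distribution of the log2 fold changes of all 7804 probe sets tested in entire sections (grey bars, 0.25 wide on the horizontal axis, numbers of probe sets on a symmetric log axis), with the 6 members as coloured lines, at 0.29% CA (top) and 0.54% CA (bottom). All 6 lines lie right of 0.5, and at 0.54% CA the lines spread between 0.93 and 2.13.

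Between the doses in entire sections, 1 of the 6 passed the test. Probe set l00320cds_f_at was 1.74-fold higher at 0.54% than at 0.29% CA (log2 0.80 ± 0.18, SE, adjusted p = 0.0313), where 0.448% of all probe sets were called higher. The call is marginal: it did not survive a fit of all 15 groups (adjusted p = 0.192), nor hold without the arrays in doubt (adjusted p = 0.0562) or when any of 5 single arrays was left out (replicates 4 and 5 at 0.29% and replicates 2, 5 and 6 at 0.54% CA; adjusted p up to 0.0925). The difference of m11251cds_f_at was as large, log2 0.80 ± 0.23 (SE), and did not pass (adjusted p = 0.106). For j00728cds_f_at it was 0.47 (95% interval 0.17 to 0.78, adjusted p = 0.171), and for k00996mrna_s_at 0.43 (95% interval 0.10 to 0.76, adjusted p = 0.274). The differences of m13234cds_f_at and m26125_at were 0.23 (95% interval -0.19 to 0.65, adjusted p = 0.755) and 0.16 (95% interval -0.02 to 0.34, adjusted p = 0.546). On the normalized scale the doses did not overlap for 4 of the 6, the exceptions being m13234cds_f_at and m26125_at, while 0.436% of all probe sets were apart in this direction.

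The rises of the 5 Cyp2b probe sets in entire sections spanned 1.91-fold to 4.38-fold at 0.54% CA. A difference of log2 intensity between 2 probe sets on the same array does not depend on the scaling of the array, and such differences were formed for the widest and the smallest rise, a pair chosen after its values were seen. The choice of the pair fixes the direction in entire sections, and no test is given. For l00320cds_f_at minus m13234cds_f_at it averaged -2.78 ± 0.29 (SD, n = 8) in entire controls, -2.08 ± 0.20 (SD, n = 8) at 0.29% CA and -1.50 ± 0.37 (SD, n = 6) at 0.54% CA. Arrays at 0.54% CA lay between -2.12 and -1.10, and controls between -3.24 and -2.41, without overlap. In stained sections it averaged -3.23 ± 0.74 (SD, n = 8) in controls, -2.61 ± 0.71 (SD, n = 7) at 0.29% CA and -2.12 ± 0.53 (SD, n = 5) at 0.54% CA. In stained sections the 3 groups overlapped, and 1 control stood at -1.47. These differences do not tell which transcripts each probe set bound.

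**Figure D3:**
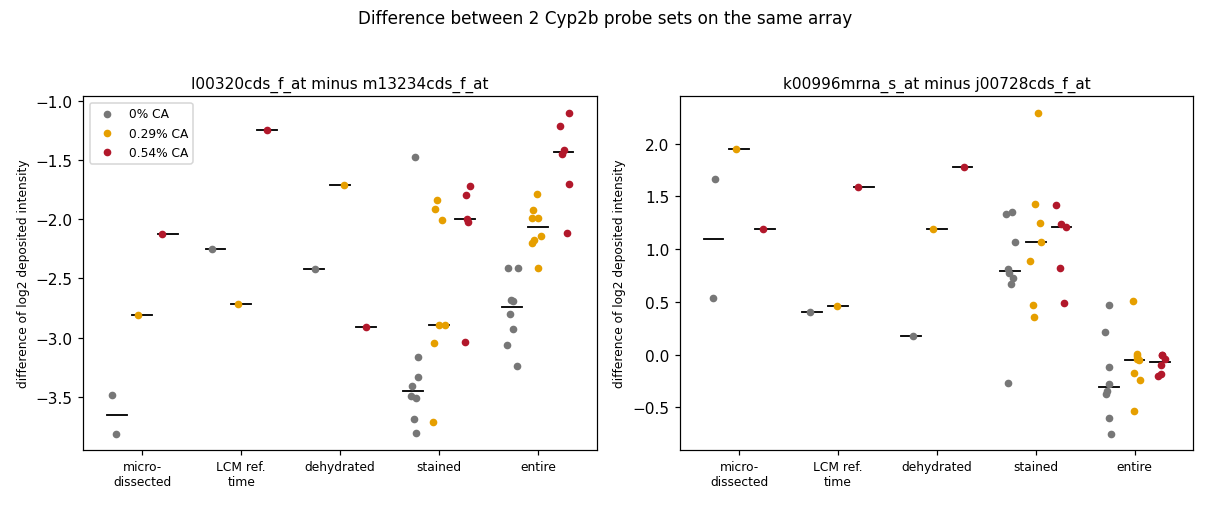
Difference of log2 deposited intensity between 2 Cyp2b probe sets on the same array (vertical axis), by section preparation (horizontal axis) and CA dose (colour); points are arrays and black bars are medians. Left, l00320cds_f_at minus m13234cds_f_at increases with dose in entire sections; right, k00996mrna_s_at minus j00728cds_f_at is higher in stained sections, with medians from 0.80 to 1.21, than in entire sections, with medians from -0.31 to -0.05.

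In stained sections Ephx1, k00996mrna_s_at and j00728cds_f_at rose at both CA doses, l00320cds_f_at and m11251cds_f_at passed the test at 0.54% CA, and m13234cds_f_at passed at neither. At 0.29% CA, 3 of 6 were called higher (k00996mrna_s_at, j00728cds_f_at and m26125_at), against 1.85% of the 7913 probe sets tested. At 0.54% CA, 5 of 6 were called higher, against 3.12% of all. The median log2 fold change of the 6 was 0.86 at 0.29% CA and 1.46 at 0.54% CA, and that of all probe sets tested was -0.01 and -0.05. The GAPDH ratio, whose median fell with dose here, was also fitted as a covariate. Over all probe sets 297 were then called at 0.54% CA in either direction, in place of 496. The same 5 members stayed called. Their log2 fold changes at that dose then were 1.40 for m11251cds_f_at, 1.65 for l00320cds_f_at, 0.97 for j00728cds_f_at and 1.32 for Ephx1. These were smaller than without the covariate, as was m13234cds_f_at at 0.57, while k00996mrna_s_at was not. The part of RNA quality was not tested beyond this fit.

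Of the Cyp2b probe sets, k00996mrna_s_at was most clearly apart after staining. It lay between 261 and 627 in the 8 stained controls (median 358.5) and between 711 and 1199 at 0.29% CA (n = 7, median 826), and at 0.54% CA the 5 arrays gave 985, 1152, 1427, 1395 and 1531. No CA array reached down to the controls. It was 2.03-fold higher at 0.29% CA (log2 1.02 ± 0.21, SE, adjusted p = 0.00511) and 2.79-fold at 0.54% CA (log2 1.48 ± 0.23, SE, adjusted p = 0.000245).

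Intensities of l00320cds_f_at in stained sections were low, between 24 and 119 in controls (median 39.5) and between 39 and 197 at 0.29% CA (median 107), and at 0.54% CA they were 177, 200, 346, 100 and 302. Both CA groups overlapped the controls, in which 1 array stood at 119 and the other 7 lay at or under 57. The fold change was 1.99 at 0.29% CA (log2 0.99 ± 0.30, SE, adjusted p = 0.0775) and 3.78 at 0.54% CA (log2 1.92 ± 0.33, SE, adjusted p = 0.000685). Without that control, replicate 5, the 0.29% value was log2 1.17 and passed (adjusted p = 0.0157). It also passed with a floor of 20 (adjusted p = 0.0457), with the 75th percentile filter on mean intensity (adjusted p = 0.0237) and when all 15 groups were fitted (adjusted p = 0.00441), and not with the GAPDH ratio as a covariate (adjusted p = 0.174).

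Probe set m11251cds_f_at lay between 34 and 104 in stained controls (median 54.5) and between 39 and 186 at 0.29% CA (median 109), and at 0.54% CA it was 203, 163, 379, 158 and 288. Only at 0.54% CA did all arrays exceed the controls. It was 3.34-fold higher at 0.54% CA (log2 1.74 ± 0.28, SE, adjusted p = 0.000441), and its value at 0.29% CA was log2 0.74 ± 0.26 (SE, adjusted p = 0.149).

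The spread of j00728cds_f_at in stained sections was 124 to 357 in controls (median 203) and 182 to 648 at 0.29% CA (median 434), and at 0.54% CA the arrays gave 557, 498, 1018, 592 and 571. It rose 1.73-fold at 0.29% CA (log2 0.79 ± 0.20, SE, adjusted p = 0.0265) and 2.37-fold at 0.54% CA (log2 1.25 ± 0.22, SE, adjusted p = 0.000991). The call at 0.29% CA was lost with the deposited scale (adjusted p = 0.137), with the GAPDH ratio as a covariate (adjusted p = 0.0507) and in 8 of the 15 fits that left out 1 control or 0.29% CA array. The arrays whose absence ended it were control replicates 1, 2, 6 and 7 and 0.29% CA replicates 1, 2, 3 and 4, with adjusted p up to 0.0727.

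Probe set m13234cds_f_at passed at neither dose in stained sections. It lay between 255 and 649 in controls (median 419) and between 281 and 1012 at 0.29% CA (median 741), and at 0.54% CA it was 721, 696, 1383, 820 and 992. All 5 arrays at 0.54% CA exceeded the controls in deposited intensity, though not after normalization. Its log2 difference was 0.37 ± 0.25 (SE, adjusted p = 0.621) at 0.29% CA and 0.79 ± 0.27 (SE, adjusted p = 0.105) at 0.54% CA. With all 15 groups in the fit the second value passed (adjusted p = 0.0231).

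Ephx1 gave the smallest p-values of the 6 in stained sections. It lay between 273 and 630 in controls (median 401) and between 502 and 1147 at 0.29% CA (median 815), and at 0.54% CA the arrays gave 1137, 1235, 1417, 1285 and 1272. The 0.54% CA arrays lay well above every control. It was 1.90-fold higher at 0.29% CA (log2 0.93 ± 0.14, SE, adjusted p = 0.00027) and 2.70-fold at 0.54% CA (log2 1.43 ± 0.16, SE, adjusted p = 3.31e-06).

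On the normalized scale the stained groups did not overlap for 2 of 6 probe sets at 0.29% CA (k00996mrna_s_at and m26125_at), where this held for 1.02% of all in the higher direction. At 0.54% CA it held for 4 of 6, the exceptions being l00320cds_f_at and m13234cds_f_at, against 2.17% of all. Between the doses in stained sections, limma called 0 of the 6, where 0.0253% of all probe sets were called higher. At an unadjusted p under 0.05 there were 3 of the 6, against 374 of the 7913 probe sets tested. The 3 were l00320cds_f_at at log2 0.93 (95% interval 0.23 to 1.62), m11251cds_f_at at 1.0 (95% interval 0.39 to 1.60) and m26125_at at 0.50 (95% interval 0.17 to 0.84). With all 15 groups in the fit m26125_at passed (adjusted p = 0.027).

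**Figure D4:**
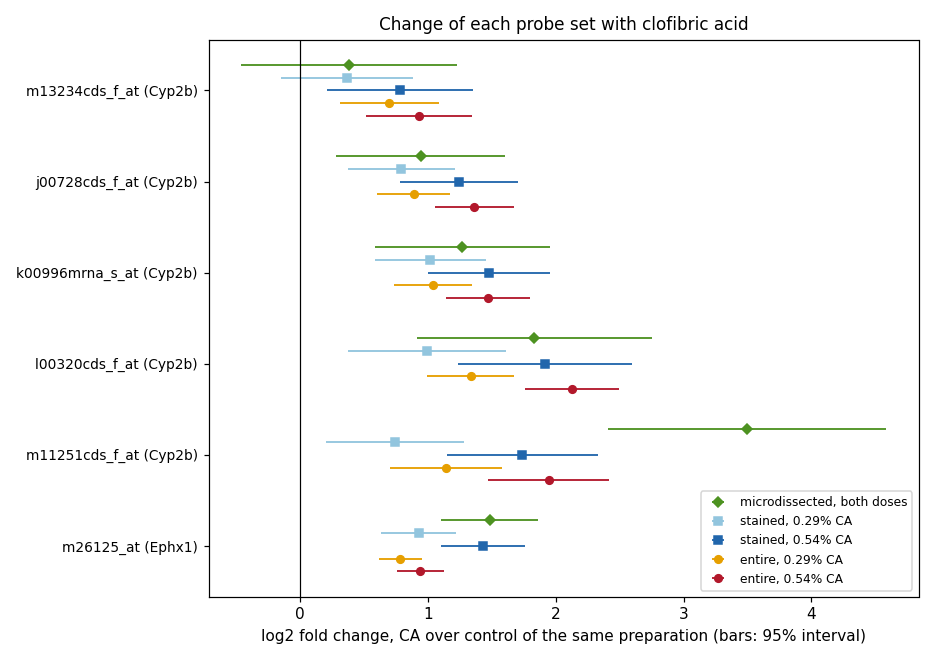
Log2 fold change of CA over control of the same preparation (horizontal axis) for each probe set (rows). Points are estimates and bars 95% intervals from limma, with green for microdissected liver, blues for stained and yellow and red for entire sections; the intervals of 4 of the Cyp2b probe sets and of Ephx1 lie above 0 throughout, and those of m13234cds_f_at reach below 0 in microdissected liver and in stained sections at 0.29% CA.

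The CA effect itself was compared between stained and entire sections as a difference of log2 fold changes. At 0.29% CA, limma called 0 of the 6, and 0.0855% of the 8191 probe sets tested were called. At 0.54% CA it called 0 of the 6, against 0.134% of all. At an unadjusted p under 0.05 there were 0 of the 6 at 0.29% and 1 at 0.54% CA, against 391 and 802 of the 8191 probe sets tested. The member at 0.54% CA was Ephx1, whose log2 fold change there was 0.49 larger in stained sections (95% interval 0.17 to 0.81, adjusted p = 0.285). For the 5 Cyp2b probe sets the differences lay between -0.40 and -0.02 at 0.29% CA and between -0.21 and 0.01 at 0.54% CA. The intervals were wide: for l00320cds_f_at at 0.54% CA it ran from -0.95 to 0.52. A response smaller by nearly 2-fold in stained sections lay within that interval, as did a somewhat larger one.

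Most of these probe sets were lower in stained than in entire sections of untreated liver. In stained against entire controls, 5 of the 6 were called lower, where 13.7% of all probe sets were called lower, and the median log2 difference was -0.95 for the 6 and 0.09 for all probe sets tested. Intensities of j00728cds_f_at spanned 124 to 357 in stained controls and 547 to 731 in entire controls, a 2.14-fold lower level without overlap (log2 -1.09 ± 0.16, SE, adjusted p = 2.02e-06). Probe set l00320cds_f_at was 2.21-fold lower (log2 -1.14 ± 0.23, SE, adjusted p = 0.000203), m11251cds_f_at 2.14-fold lower (log2 -1.10 ± 0.23, SE, adjusted p = 0.000306) and m13234cds_f_at 1.74-fold lower (log2 -0.80 ± 0.21, SE, adjusted p = 0.00339). Ephx1 was 1.52-fold lower (log2 -0.61 ± 0.10, SE, adjusted p = 1.13e-05).

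The _s_at probe set, k00996mrna_s_at, was the exception. It had a median intensity of 358.5 in stained controls and 449 in entire controls, and its log2 difference was -0.07 (95% interval -0.42 to 0.27, adjusted p = 0.816). On the same arrays, k00996mrna_s_at minus j00728cds_f_at averaged 0.81 ± 0.51 in stained controls and -0.22 ± 0.41 in entire controls (SD, n = 8 each), a pair chosen after its values were seen and given without a test. The GAPDH 3'/5' ratio differed between the same groups, with a range of 4.66 to 18.9 in stained controls and 1.25 to 6.25 in entire controls. With that ratio as a covariate 398 of all probe sets were called in either direction, in place of 2462 without it. Of the 6 only Ephx1 stayed called (log2 -0.48, adjusted p = 0.0465). The log2 differences then were -0.59 for j00728cds_f_at, -0.75 for l00320cds_f_at, -0.51 for m11251cds_f_at and -0.52 for m13234cds_f_at, with adjusted p from 0.11 to 0.46. Because the ratio largely goes with the preparation, this fit separates them poorly. The part of RNA quality in the lower levels was not tested beyond it.

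Read across the 6 replicated groups, the order of normalized levels put entire sections at 0.54% CA highest and stained controls lowest for each of the 6 probe sets. For k00996mrna_s_at the order followed the dose first: stained and entire controls had mean log2 levels of 8.72 and 8.79, those sections at 0.29% CA 9.74 and 9.83, and at 0.54% CA 10.19 and 10.26. Within each of these pairs the means were closer than the larger SD of the pair. For j00728cds_f_at both preparation and dose set the means apart, with stained sections at 7.92 (control), 8.71 (0.29% CA) and 9.16 (0.54% CA) and entire sections at 9.01, 9.90 and 10.38. In that order, stained sections at 0.54% CA and entire controls were neighbours that differed by 0.15, within their SDs. For m13234cds_f_at the stained groups at all doses stood below or level with entire controls, at 8.88, 9.25 and 9.67 from control to 0.54% CA, against 9.69. Ephx1 stood at 8.74 and 9.35 in stained and entire controls, 9.67 and 10.13 at 0.29% CA, and 10.18 and 10.29 at 0.54% CA, with 1 pair of neighbours closer than their SDs: stained sections at 0.54% CA and entire sections at 0.29% CA.

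Microdissected liver showed the CA rise in 5 of the 6 probe sets. The 2 doses were averaged against the 2 controls, with the spread pooled over all 15 groups, so that the lone CA arrays are assumed to vary like the replicated groups. By this test 5.72% of the 8318 probe sets tested were called higher. Ephx1 stood at 510 at 0.29% CA and 875 at 0.54% CA, against 295 and 145 in the controls, and was 2.80-fold higher (log2 1.48 ± 0.19, SE, adjusted p = 2.11e-07). Both CA arrays lay above both controls.

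Among the Cyp2b probe sets of microdissected liver, k00996mrna_s_at gave 483 at 0.29% CA and 1189 at 0.54% CA, against 295 and 256 in controls. It was 2.41-fold higher (log2 1.27 ± 0.34, SE, adjusted p = 0.00874), a call that ended without control replicate 1 (adjusted p = 0.094). Probe set l00320cds_f_at gave 51 and 242 at the 2 CA doses, against 40 and 29, and was 3.56-fold higher (log2 1.83 ± 0.45, SE, adjusted p = 0.00505). After normalization the arrays at 0.29% and 0.54% CA stood at log2 levels of 9.90 and 10.26 for k00996mrna_s_at and 6.83 and 8.09 for l00320cds_f_at, so that the doses lay closer together than in deposited intensity.

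The size of the m11251cds_f_at rise in microdissected liver depends on 1 array near the floor. It gave 78 at 0.29% CA and 281 at 0.54% CA, against 40 and 6 in controls, and its log2 fold change was 3.50 ± 0.54 (SE, adjusted p = 7.96e-06). The value was 4.78 without control replicate 1 and 2.22 without control replicate 2, and 2.90 with a floor of 20. Probe set j00728cds_f_at gave 125 and 520 at the CA doses, against 203 and 81, so that the lower dose fell between the controls in deposited intensity. After normalization it stood at a log2 level of 8.17, above both controls at 8.07 and 7.36. Its log2 fold change of 0.94 ± 0.32 (SE) passed narrowly (adjusted p = 0.0485). That call was lost on the deposited scale, without the arrays in doubt, with the GAPDH ratio as a covariate, with only microdissected, stained and entire groups in the fit, and without control replicate 2 (log2 0.59, adjusted p = 0.427). Probe set m13234cds_f_at gave 358 and 1054, against 561 and 325, and was not called (log2 0.38 ± 0.42, SE, adjusted p = 0.675). The GAPDH 3'/5' ratio was 6.20 and 3.02 on the CA arrays, against 14.3 and 9.22 on the control arrays, and its part in these values was tested only by that covariate.

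With the doses averaged, the microdissected level did not differ detectably from the stained level for any of the 6. Limma called 0 of the 6, against 12.3% of all probe sets called in either direction. At an unadjusted p under 0.05 there were also 0 of the 6, against 2146 of the 8318 probe sets tested. The log2 differences lay between -0.25 for j00728cds_f_at (95% interval -0.63 to 0.12) and 0.42 for m13234cds_f_at (95% interval -0.06 to 0.91).

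Dehydrated and LCM-reference-time sections gave 1 array per dose, without a test. In dehydrated sections k00996mrna_s_at had an intensity of 417 in the control, 959 at 0.29% CA and 928 at 0.54% CA, and Ephx1 had 627, 1016 and 641. Probe set l00320cds_f_at gave 85, 166 and 64 in the same order, so that its 0.54% CA array lay below the control in deposited intensity. At least 2-fold higher after normalization was 1 of the 6, k00996mrna_s_at, at each dose, where this held for 12.9% of all probe sets at 0.29% CA and 21.2% at 0.54% CA.

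In LCM-reference-time sections k00996mrna_s_at had 240 in the control, 819 at 0.29% CA and 1212 at 0.54% CA, and Ephx1 had 140, 670 and 680. After normalization the rises at 0.29% and 0.54% CA were 2.05-fold and 2.21-fold for k00996mrna_s_at, and 3.08-fold and 2.30-fold for Ephx1. At least 2-fold higher were 6 of the 6 at 0.29% CA and 4 of the 6 at 0.54% CA, beside 28% and 24.5% of all probe sets. Probe set m11251cds_f_at gave 6, 108 and 215, with the control near the floor. The mean deposited intensity of the 3 arrays of this preparation ranged from 114 to 168. Probe set m13234cds_f_at at 0.54% CA stood above the control in deposited intensity (474 against 252), and not after normalization (log2 -0.17).

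The likeness of other probe sets to the Cyp2b pattern was taken as Pearson's r with m13234cds_f_at over the 22 entire arrays. That is the Cyp2b probe set of highest mean level. All probe sets on these arrays share the controls, the doses and the differences in RNA quality (GAPDH ratio 1.18 to 6.49). Over those arrays r was 0.87 for m11251cds_f_at and for j00728cds_f_at, 0.86 for k00996mrna_s_at, 0.85 for l00320cds_f_at and 0.77 for Ephx1. After the group means were subtracted, r stayed between 0.67 and 0.71 for the other 4 Cyp2b probe sets and was 0.27 for Ephx1. On replicate 6 at 0.29% CA, m13234cds_f_at stood at log2 9.28 against a group mean of 10.39, and m11251cds_f_at at 6.83 against 8.20. Ephx1 stood at 10.12 on that array, against a group mean of 10.13. How far these values of r rest on that 1 array was not tested. Among the 3775 probe sets ranked, all above the floor on all 22 arrays, the 2 most alike were not members. They were j02844_s_at (r = 0.91, and 0.87 within groups) and rc_aa799489_g_at (r = 0.90, and 0.78 within groups). The third had r = 0.90 as well, and none of them has a gene name in the sources used here.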

How the data were processed

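Each probe set has a whole-number intensity on a linear scale, as the authors deposited it; how they scaled it, and with which software, is not given in the sources used here. Because 55.5% of intensities lay under 20, values were raised to a floor of 4, the 10th percentile of the positive intensities, and log2 values were quantile normalized over all 52 arrays. The 59 control probe sets were left out of the tests. Groups were compared by limma 3.58.1 under R 4.3.3 with two-sided moderated tests and Benjamini-Hochberg adjustment over all probe sets that exceeded the floor on 1 or more of the arrays fitted: the 22 entire arrays in 1 fit, the 20 stained in another, both together for contrasts between them, and all 15 groups for microdissected liver. The procedure was tested on simulated data. No 2 arrays were identical. The member rule uses IDs only, but it, the lists and the tests were chosen with earlier results of these data known. All members are named; the list of CAR-linked and PPARα target genes and the cell type markers had been fixed by symbol and could not be used. Over 94 pairs of same-numbered replicates of entire and stained groups, deviations from the group means correlated between -0.18 and 0.50, and 30 pairs exceeded 0.1. These were uneven: 6 of 7 pairs of stained controls with stained 0.29% CA, and 5 of 8 of entire controls with entire 0.29% CA. The numbers were not taken to pair samples in the main fits, and a replicate block was fitted only as an alternative. Alternatives were the deposited scale centred on each array's median, a floor of 20, a mean intensity above the 75th percentile (66), other groups in the fit, the GAPDH ratio as covariate, the replicate number as block, and leaving out single replicates or the 6 arrays in doubt (entire with a GAPDH ratio above 4, stained with 5S rRNA above 200). Promoter windows are RefSeq's (GRCr8), aligned with Biopython 1.88; plots used matplotlib 3.10.9 in Python 3.11.15.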

Additional observations from a re-analysis of the deposited data

Results flagged for a closer look

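In 36 tests of 1 array against the rest of its group, 2 stood apart, where chance gives about 1 in 20. Probe set m13234cds_f_at was lowest on replicate 6 of entire sections at 0.29% CA, at a normalized log2 level of 9.28 (intensity 722), and the next array stood at 10.18; the gap took 0.58 of the group's range. Probe set l00320cds_f_at was highest on replicate 1 of stained sections at 0.29% CA, at 7.52 (intensity 197), and the next array stood at 6.71; the gap took 0.60 of the range. The GAPDH 3'/5' ratio was 2.65 on the first of these arrays and 7.32 on the second, and its part was not tested.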

How the results depend on the processing

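In entire sections all 6 probe sets kept direction and call against control at both doses under every alternative run, with log2 fold changes from 0.64 to 1.45 at 0.29% CA and 0.85 to 2.19 at 0.54% CA. The number called between the doses, 1, was 2 with the 75th percentile filter, 0 with all 15 groups and 0 without the arrays in doubt, and 0 to 1 when single replicates were left out. Between the doses in stained sections it was 1, in place of 0, with all 15 groups. Stained against entire controls it was 1, in place of 5, with the GAPDH ratio. In stained sections at 0.29% CA it ranged from 2 to 4, in place of 3, without single replicates, and l00320cds_f_at joined with a floor of 20, the 75th percentile filter or all 15 groups. At 0.54% CA in those sections m13234cds_f_at joined the 5 called with the 75th percentile filter or all 15 groups. In microdissected liver 1 of the 5 called, j00728cds_f_at, was lost on the deposited scale, without the arrays in doubt and with the GAPDH ratio. It was also lost with only microdissected, stained and entire groups in the fit. Calls changed as well when either control was left out. The cause was not tested.

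Changes of sign occurred only in differences near 0 that were called under no setting. On the deposited scale k00996mrna_s_at gave 0.098 for stained minus entire at 0.29% CA, 0.024 for stained against entire controls and -0.27 for microdissected against stained; j00728cds_f_at and m13234cds_f_at gave 0.099 and 0.020 for stained minus entire at 0.54% CA, and l00320cds_f_at -0.17 for microdissected against stained. The GAPDH covariate gave 0.0051 for k00996mrna_s_at (stained minus entire, 0.29% CA). Without the arrays in doubt j00728cds_f_at gave 0.036 at 0.29% and k00996mrna_s_at -0.085 at 0.54% CA. A floor of 20 gave 0.15 for m11251cds_f_at (microdissected against stained). The replicate block gave -0.022 for k00996mrna_s_at at 0.54% CA and changed no call of a member. Leaving out single replicates, k00996mrna_s_at ranged from -0.14 to 0.062 at 0.29% and from -0.094 to 0.10 at 0.54% CA (stained minus entire) and from -0.16 to 0.027 (stained against entire controls), l00320cds_f_at from -0.39 to 0.050 (0.54% CA) and m11251cds_f_at from -0.48 to 0.38 (microdissected against stained).

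Counts over all probe sets moved more: the 869 and 1236 called in entire sections at 0.29% and 0.54% CA were 532 and 782 with all 15 groups, the 73 between the doses ranged from 33 to 213, the 289 in stained sections at 0.29% CA ranged from 224 on the deposited scale to 546 with all 15 groups, the 496 at 0.54% CA from 297 with the GAPDH ratio to 964 with all 15 groups, the 1062 in microdissected liver from 311 on the deposited scale to 1215 without the arrays in doubt (686 without control replicate 2), the 1025 for microdissected against stained from 212 with the 75th percentile filter to 1694 without the arrays in doubt (661 without microdissected control replicate 2), and the 2462 for stained against entire controls ranged from 398 with the GAPDH ratio to 3797 on the deposited scale.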
